A study of Caenorhabditis elegans with 2 samples.

Results

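The genes described are those of the mitochondrial ribosome of Caenorhabditis elegans, and the measurement is where the transcription factor EFL-1 lay on chromatin near their starts. Members were all protein-coding genes of the assembly WBcel235 named mrpl- or mrps- plus a number, with or without a letter after it. There were 70 of them among 19973 protein-coding genes on the nuclear chromosomes, 41 for the large subunit (mrpl) and 29 for the small subunit (mrps). The study profiled a single group, whole first-stage (L1) hermaphrodite larvae of the wild-type strain N2 grown at 26 °C, by chromatin immunoprecipitation with an antibody to EFL-1 and sequencing (ChIP-seq). There were 2 biological replicates from separate biosamples and no second condition. Tissues were not separated, so a summit seen in only some cells cannot be told apart from a weak one in all. The labels name a control, which was not analysed here.

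EFL-1 is a worm member of the E2F family of transcription factors and works with the dimerisation partner DPL-1 and with the DREAM complex, which represses genes of the cell division cycle when cells do not divide. The mitochondrial ribosome translates the few proteins encoded by mitochondrial DNA, all of them parts of the respiratory chain and ATP synthase. Its own proteins are encoded in the nucleus, made in the cytosol and imported. In worms, lowering mrps-5 is known to activate the mitochondrial unfolded protein response and to lengthen life. Many worm genes lie in operons, whose messages are cut from a common transcript that begins at the first gene, so the start of a later gene need not be a promoter.

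A gene is called bound where a peak summit of the set thresholded by the irreproducible discovery rate (the IDR set, 4835 peaks on ce11) fell in the window that runs from 500 bp before its annotated start to 200 bp behind it. The score of a peak is the authors' value, with no stated scale. It is used only to rank and describe peaks within 1 list, and the IDR scores lay between 59.6 and 15978. The lists called on replicate 1, replicate 2 and both pooled held 28817, 30000 and 30000 relaxed peaks, and the IDR set was identical to the 4835 highest-scoring peaks of the pooled list. Read numbers are not in these lists, so the depth is unknown. The members were chosen by name, but binding is part of how the family was picked for description. Counts are therefore given without a test, beside the share of all protein-coding genes.

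The sequences at some of the members' summits are shown first because the 5 highest-scoring member peaks each held an E2F motif. Each line holds 50 bases to either side of the summit on the strand of the gene, from RefSeq's WBcel235 sequence, with capitals on any of 4 spellings on either strand. These are TTCCCGC and its variant TTCGCGC, together with the form TTGCCGC and its variant TTGGCGC, and overlapping matches were allowed. The regions are chrII:156080-156180 (minus strand) for mrpl-28, chrII:5474106-5474206 (plus) for mrps-16 and chrIV:443814-443914 (plus) for mrpl-55, the 3 highest-scoring members. Those at chrIII:9089587-9089687 (minus) for mrpl-44 and chrIV:14767850-14767950 (minus) for mrps-7 are the highest-scoring members without such a spelling.
mrpl-28: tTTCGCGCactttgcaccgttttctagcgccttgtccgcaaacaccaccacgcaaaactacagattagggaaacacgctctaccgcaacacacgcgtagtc
mrps-16: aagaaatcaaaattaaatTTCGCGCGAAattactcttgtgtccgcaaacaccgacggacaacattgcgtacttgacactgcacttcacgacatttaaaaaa
mrpl-55: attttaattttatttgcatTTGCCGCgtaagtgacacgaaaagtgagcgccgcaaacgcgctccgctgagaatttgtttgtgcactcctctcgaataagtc
mrpl-44: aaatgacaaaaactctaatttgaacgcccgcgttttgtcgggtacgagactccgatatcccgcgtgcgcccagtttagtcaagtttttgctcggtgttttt
mrps-7: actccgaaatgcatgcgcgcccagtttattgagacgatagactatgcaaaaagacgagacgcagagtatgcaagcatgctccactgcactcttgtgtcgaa

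In mrps-16 the capitals span overlapping matches on both strands.

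Summits lay at the starts of just over 1 in 2 members. Of the 70, 38 (54.3%) were bound, against 15.2% of all protein-coding genes, and the 38 rested on 37 peaks because mrpl-1 and mrps-24 had a peak in common. Of the 41 large-subunit genes 21 (51.2%) were bound, and of the 29 small-subunit genes 17 (58.6%). No member lay on the X chromosome, which held 13.7% of protein-coding genes; among autosomal genes 16.3% were bound. By chromosome, 8 of 15 members were bound on I, 4 of 12 on II, 15 of 22 on III, 6 of 11 on IV and 5 of 10 on V. The share of all protein-coding genes was not counted for each chromosome. Differences between chromosomes are therefore not read as a trait of the members. Of the 32 unbound members 17 had a summit in the relaxed pooled list and 15 had none there. A relaxed summit lay at the starts of 55 members (78.6%), against 32.7% of all protein-coding genes. The 55 include the 38 bound members. The relaxed lists were deposited as peaks and background, so a relaxed summit below the IDR set need not be binding.

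**Figure D1:**
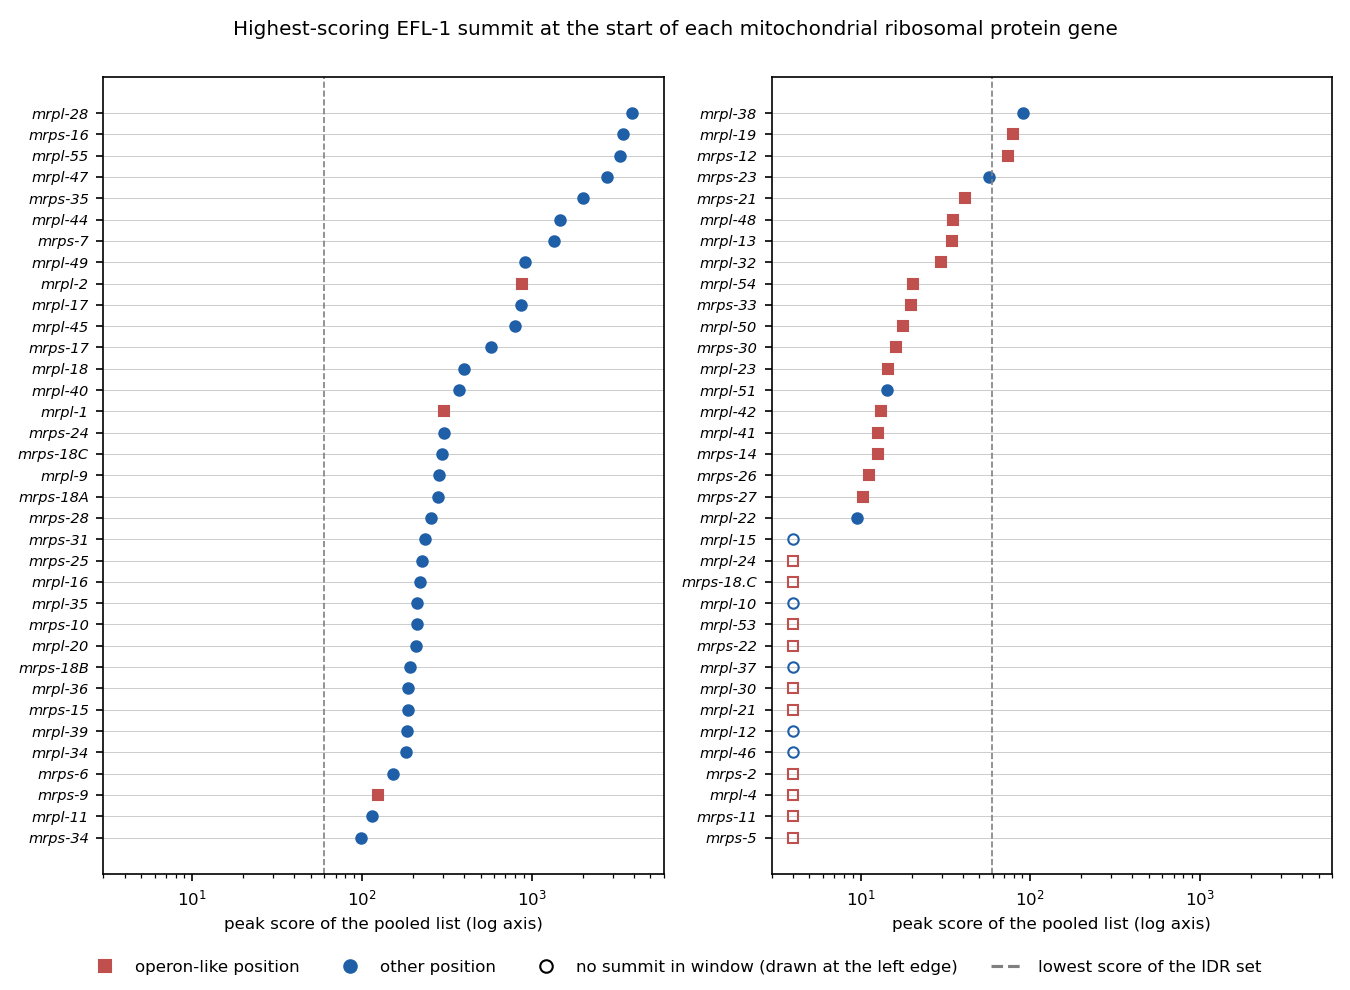
Peak score (log axis, pooled list) of the highest-scoring summit within 500 bp upstream to 200 bp downstream of each member's start. Squares are members in operon-like positions and circles the others; open symbols at the left edge mark members with no summit, and the dashed line is the lowest IDR score, 59.6. The 8 highest-scoring members are all circles, and squares make up most of the points left of the line.

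The highest score of the family was at mrpl-28, a large-subunit gene, with 3928 in the IDR set. Its peak ranked 84 of 4835 there, 82 among the replicate 1 peaks and 90 among the replicate 2 peaks, and its summit lay 121 bp upstream of the start. The small-subunit gene mrps-16 followed with 3471, at ranks 130 and 101 in replicates 1 and 2 and a summit 217 bp upstream. Both genes stood alone, with no other protein-coding start in reach of the summit. The large-subunit gene mrpl-55 scored 3322 (ranks 156 and 102, summit 121 bp upstream). The gene mrpl-47 scored 2764 (ranks 191 and 158), with its summit 8 bp upstream of the start, the nearest of any bound member. The small-subunit gene mrps-35 scored 2006 (ranks 275 and 260, summit 128 bp upstream). These 5 peaks each held an E2F spelling, and none had a second gene's window over the summit.

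Members from the sixth place down scored lower, and the next 5 held none of the spellings. At mrpl-44, whose protein has a ribonuclease III-like fold in other animals, the peak scored 1467 (ranks 389 and 402 in replicates 1 and 2). Its annotated start is also that of mccc-2, a gene of leucine breakdown, so the summit 262 bp upstream belongs to both. The small-subunit gene mrps-7 scored 1346 (ranks 371 and 459), mrpl-49 scored 917 (ranks 639 and 620) and mrpl-2 scored 874 (ranks 794 and 604). The tenth was mrpl-17 with 870 (ranks 728 and 628). The peak of mrpl-49 lay between it and rpl-28, a gene of the cytosolic ribosome, so that 1 summit was in reach of a gene of each ribosome; it was 167 bp from the start of mrpl-49 and 352 bp from that of rpl-28.

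Most bound members had moderate peaks. The 38 scores had a median of 269 (quartiles 186 and 853), against 325 for the best peaks of all 3027 bound protein-coding genes and 180 for all IDR peaks. Of the 38, 31 scored above the median of all IDR peaks, and 7 ranked within the first 10% of the set. Of all protein-coding genes, 10.4% were bound by a peak above that median and 15.2% by any IDR peak. The share of all bound genes within the first 10% was not counted. The lowest were mrps-12, the gene of a protein at the decoding site of bacterial ribosomes, with 73.5, mrpl-19 with 79.1 and mrpl-38 with 90.9. Just outside was mrps-23, whose relaxed summit scored 57.3 and ranked 4955 in the pooled list. Farther down that list were mrps-21 with 41.3 (rank 6248), mrpl-48 with 35.2 (7018), mrpl-13 with 34.6 (7128) and mrpl-32 with 29.7 (8080). Large-subunit members had a median score of 304 and small-subunit members one of 234, with ranges that overlapped from 79.1 to 3471.

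The replicates ranked these peaks alike. All 38 had a matching summit within 100 bp in both replicate lists, and 37 (97.4%) were among the 4835 top peaks of each, against 90.9% of the best peaks of all bound genes. This follows in part from the selection of the IDR set on pooled reads. The exception was mrps-12, at rank 5067 in replicate 1 and 4391 in replicate 2. The difference in rank between replicates had a median of 217 and reached 1087 at mrps-9, which ranked 2437 in replicate 1 and 3524 in replicate 2. A better rank in replicate 2 was seen for 23 members and in replicate 1 for 15.

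**Figure D2:**
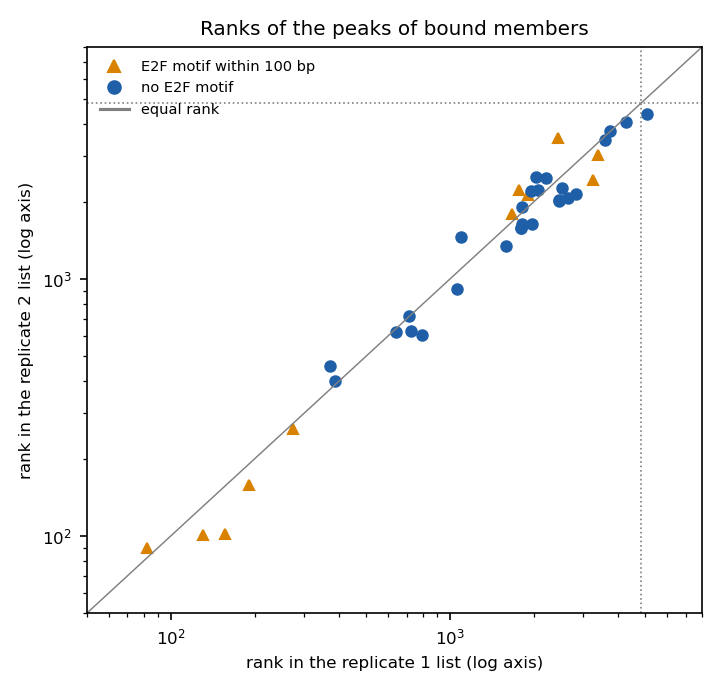
Rank of the peak of each of the 38 bound members in the replicate 1 list (x axis) and the replicate 2 list (y axis), both on log axes. Triangles are peaks with an E2F spelling within 100 bp and circles those without; the line marks equal rank and the dotted lines rank 4835. The 5 best-ranked points are triangles, and 1 point, mrps-12, lies beyond a dotted line.

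The share of members bound differed with position in the genome. A gene is called operon-like where it started at most 500 bp downstream of the end of a protein-coding gene on its strand. Of the 41 members in other positions 33 (80.5%) were bound, against 16.3% of all protein-coding genes in such positions. Of the 29 operon-like members 5 (17.2%) were bound, against 10.7% of all operon-like genes. Among all protein-coding genes the share thus differed far less between these positions (16.3% and 10.7%) than among members. In the small subunit 15 of 16 members outside operon-like positions were bound, the exception being mrps-23, and in the large subunit 18 of 25.

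The gap to the gene upstream divided the operon-like members further. With a gap of at most 200 bp, 1 of 22 members (4.55%) was bound, which is near the 6.53% of all such genes. With a gap over 200 bp and up to 500 bp, 4 of 7 (57.1%) were, against 16.4% of such genes. These 4 were mrpl-2, with a gap of 347 bp, mrps-9 (256 bp, score 124), mrpl-19 (311 bp) and mrps-12 (460 bp). The genes upstream of them, F56B3.9, the sterol transporter gene ncr-2, rnf-145 and the Numb gene num-1, were unbound. Each is also the first gene of its operon-like run, followed upstream over gaps of at most 500 bp. Among all 1698 genes with a gap in this range, 279 were bound, 370 had a bound first gene and 551 had either. Most of the 279 thus had an unbound first gene. The 24 unbound operon-like members had a median gap of 105 bp (quartiles 93 and 112). The unbound members with wider gaps were mrpl-54 (373 bp), mrpl-32 (410 bp) and mrpl-41.

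The 1 bound member with a short gap was mrpl-1, and there the call turned on which transcript is read. One of its 2 annotated transcripts runs through emc-6, a gene of the endoplasmic reticulum membrane complex, and starts 35 bp from it, within reach of the summit. The other starts 107 bp behind the end of emc-6 and 809 bp from the summit. Apart from mrpl-1, 0 of 21 members with a gap of at most 200 bp were bound, against 6.53% of all genes with such a gap.

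**Figure D3:**
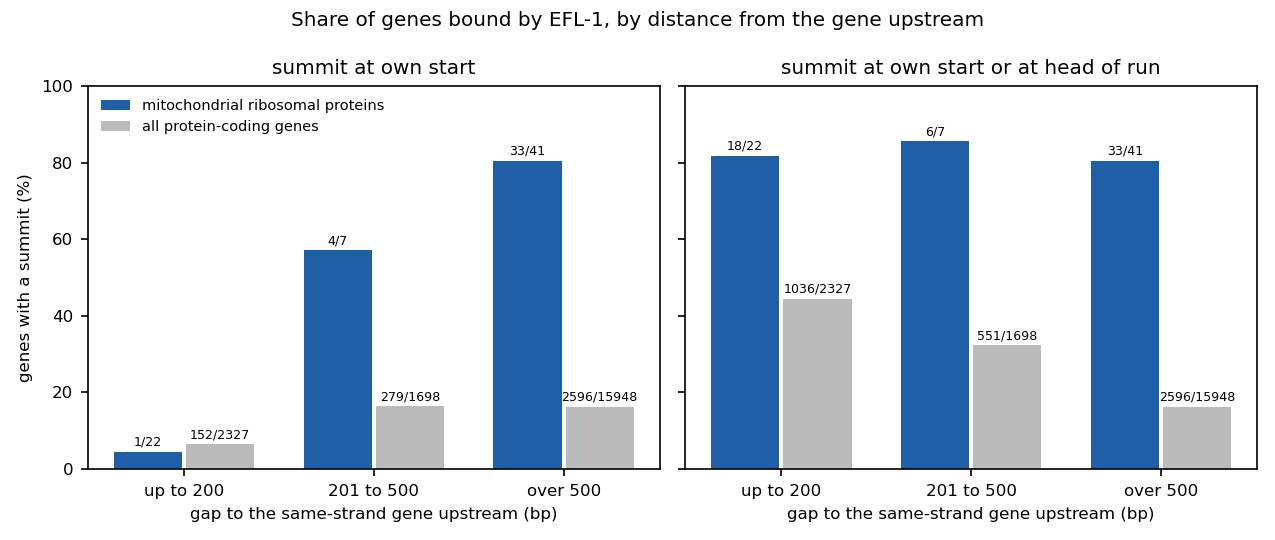
Percent of genes with an IDR summit at their own start (left panel) or at their own start or that of the first gene of the run (right panel), by gap to the same-strand gene upstream. Blue bars are the mitochondrial ribosomal protein genes and grey bars all protein-coding genes, with the counts above. At own starts the blue bars stand at 4.55%, 57.1% and 80.5% and the grey bars at 6.53%, 16.4% and 16.3%. With the first gene included, the blue bars stand at 81.8%, 85.7% and 80.5% and the grey bars at 44.5%, 32.4% and 16.3%.

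The first genes of the runs in which unbound members lay were often bound themselves. The 29 operon-like members lay in 28 runs, and for 20 of them (69.0%) the first gene was bound, against 32.7% of all operon-like genes. Of the 24 unbound ones, 19 (79.2%) had a bound first gene, at scores from 139 to 5892 with a median of 694. The same share among all unbound operon-like genes is not given here. Over all 29, the first gene's start lay 35 to 19587 bp from the member's. Counting a summit at the own start or at the first gene, 57 of 70 members (81.4%) had one, against 20.9% of all protein-coding genes; within operon-like positions it was 24 of 29 (82.8%) against 39.4%. A run of this kind was read from distances alone, so which genes are transcribed together was not measured.

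The strongest of these first genes was clsp-1, the claspin gene of the replication checkpoint, which precedes mrpl-54. Its peak scored 5892, ranked 24 of 4835 and held 3 E2F spellings, whereas the relaxed summit at mrpl-54 itself scored 20.4. The gene W04B5.5, ahead of mrpl-30, scored 3870, and mrpl-30 had no relaxed summit. The proteasome gene rpn-3 scored 1651 ahead of mrpl-32, and vps-37, a gene of endosomal sorting, scored 1317 ahead of mrpl-48. Further bound first genes included rpb-6 of RNA polymerase (937, ahead of mrps-22), the initiation factor gene eif-3.E (933, mrps-30), the ATP synthase gene atp-2 (810, mrps-26) and the chaperonin gene cct-2 (181, mrpl-50). The run of the acetyltransferase gene natc-1 (686) held both mrps-2 and mrpl-4, neither with a relaxed summit of its own.

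At mrps-5, the member best known from ageing studies, no relaxed summit was found. It starts 103 bp behind sel-1, a gene of protein degradation at the endoplasmic reticulum, whose start had a summit scoring 139 at rank 2880, the lowest of these first genes. The first gene was unbound for 5 of the 24. They were mrpl-23 behind fars-1, a cytosolic tRNA synthetase gene, mrpl-41 behind misc-1, mrps-14 behind the nuclear RNA interference gene nrde-2, mrpl-21 in the run of T08A11.1, and mrpl-24 in the run of rpa-4. In the run of mrpl-24 the second gene, zipt-11, was bound with a score of 351, so that 20 of the 24 had some bound gene upstream in the run. The share of all operon-like genes under this wider rule was not counted.

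Outside operon-like positions 8 members were unbound. They included mrpl-10 and mrpl-12, whose bacterial counterparts form the stalk that recruits translation factors; neither had a relaxed summit. The gene mrpl-11, for a protein at the base of that stalk, was bound with a score of 114 (ranks 3401 and 3033 in replicates 1 and 2). The nearest IDR summit lay at -514 bp for mrpl-12, just beyond the window, at -602 bp for mrpl-15 and at -638 bp for mrpl-37. It was farther from mrpl-51 (-1325 bp), mrps-23 (1774 bp), mrpl-10 (2231 bp), mrpl-46 (-3924 bp) and mrpl-22 (5985 bp). The gap in front of mrpl-22 was 534 bp, just over the limit for an operon-like position. At the opposite edge, the summit of mrps-18C lay 486 bp upstream.

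Every summit of a bound member was upstream of the annotated start. The median position was -166 bp (quartiles -236 and -123), against -170 bp (quartiles -280 and -97) for the best peaks of all bound genes, some of which lay inside the gene. No bound member had a second IDR summit in its window.

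Many of these summits were in reach of a gene on the opposite strand. Of the 38, 22 (57.9%) fell in the window of such a gene as well, against 41.8% of all bound genes. The starts of such pairs were 143 to 579 bp apart. There were 22 such pairs, 1 of them made of 2 members, mrpl-1 and mrps-24. In the 21 pairs with a gene outside the family, the summit was nearer the member in 9 and nearer the neighbour in 12, so it cannot be assigned to 1 of the genes. At mrpl-40 the summit lay beyond the neighbour's start, 27 bp from it, and not between the starts. At mrpl-17 the starts were 422 bp apart, with the summit nearer the member than vbh-1, a gene of a DEAD-box RNA helicase. At mrpl-9 (score 284) the distances were 181 and 175 bp, the neighbour being the casein kinase gene kin-3. At mrps-15 (186) they were 30 and 294 bp, with asg-1 for a subunit of ATP synthase, and at mrps-6 (152) 300 and 245 bp, with the proteasome gene rpn-8. At mrps-10 (210) they were 311 and 249 bp, the neighbour being the nuclear pore gene npp-25.

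One summit lay between members of both subunits. The start of mrps-24 was 152 bp from it and that of mrpl-1 192 bp, on the opposite strand, with emc-6 beside mrpl-1 at 157 bp. The peak scored 304 and ranked 1800 in replicate 1 and 1579 in replicate 2. Its sequence, shown because a small-subunit and a large-subunit gene hold it in common, has no E2F spelling in the 101 bases around the summit (chrIV:7709843-7709943, plus strand, as for mrps-24).
mrps-24: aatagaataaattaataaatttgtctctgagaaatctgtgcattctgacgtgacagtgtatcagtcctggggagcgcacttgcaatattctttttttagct

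**Figure D4:**
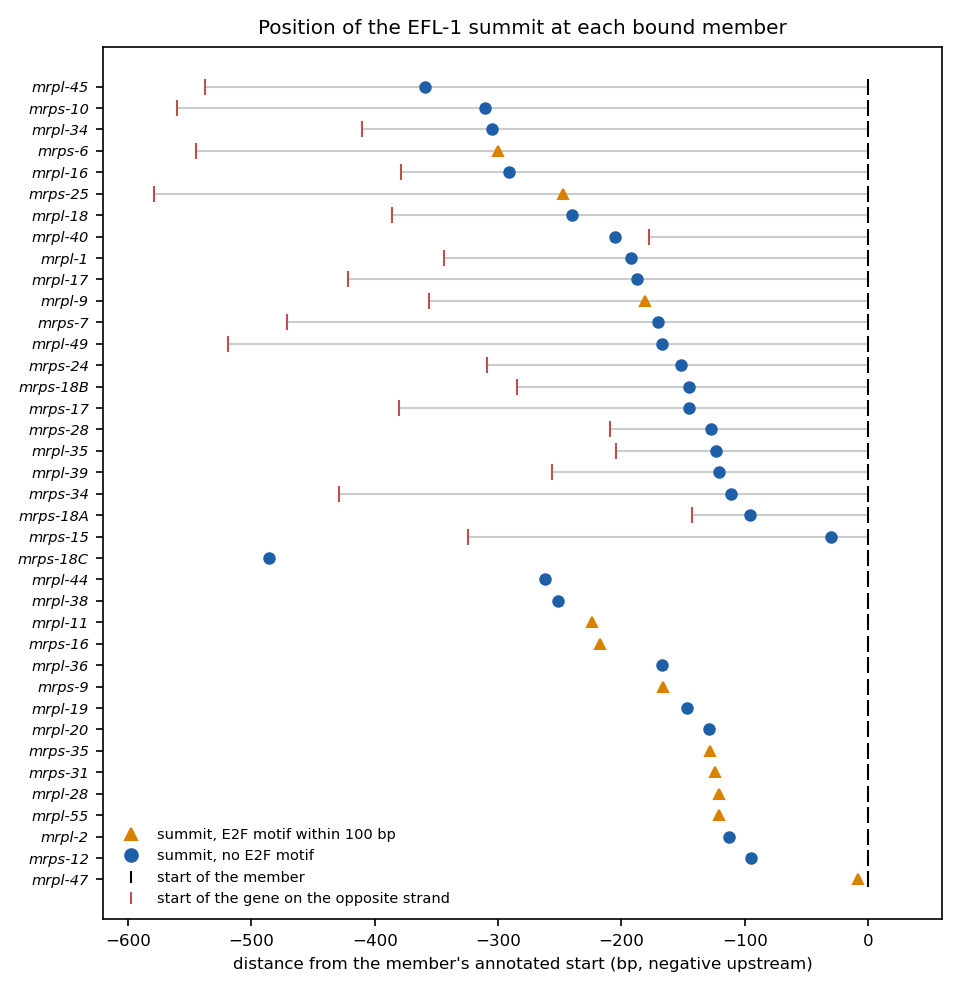
Position of the IDR summit at each of the 38 bound members, in bp from the member's annotated start (black bar, negative upstream). Red bars are the starts of genes on the opposite strand that have the same summit in their window (for mrps-24, the nearer of 2), and triangles mark an E2F spelling within 100 bp. All 38 summits are left of the start; the upper 22 rows have a red bar, and 8 of the 11 triangles are in the 16 rows without one.

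The E2F motif was found at 11 of the 37 member peaks (29.7%) within 100 bp of the summit. It was present at 17.5% of all IDR peaks, 19.9% of those at protein-coding starts, 8.01% of relaxed peaks below the IDR set and 6.89% of stretches of the same length taken 250 to 50 bp upstream of every protein-coding start. The same letters read backwards, with the same base composition, were at 5 of the 37 member peaks (13.5%) and at 10.5% of all IDR peaks. The centres of the spellings lay 11 to 69 bp from the summit. A match of letters is a description and does not show that EFL-1 touches them.

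Among the 16 member peaks with no opposite-strand gene in reach 8 held a spelling, and among the 21 with one 3 did (14.3%), at mrps-6, mrpl-9 and mrps-25. Over all IDR peaks at protein-coding starts the shares were 19.9% without such a gene and 20.1% with one. The split within the family was noticed in these peaks and was not tested. The scores of the 11 members with a spelling ranged from 114 to 3928 with a median of 284, and those of the 27 without from 73.5 to 1467 with a median of 256. The groups overlapped across most of their range, and every score above 1467 belonged to a member with a spelling. The share with a spelling among equally high-scoring IDR peaks elsewhere was not counted. Whether this is particular to the members is therefore not known. A spelling did not go with a high score in each case. Both mrpl-55 and mrpl-11 held TTGCCGC, and both mrpl-28 and mrps-9 held TTCGCGC, yet mrpl-11 and mrps-9 scored 114 and 124. Their summit regions, chrIII:8717370-8717470 and chrIII:8265846-8265946 (both plus), are shown for comparison with the strong ones above.
mrpl-11: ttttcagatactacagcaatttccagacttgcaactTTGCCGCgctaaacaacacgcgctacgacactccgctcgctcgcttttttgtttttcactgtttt
mrps-9: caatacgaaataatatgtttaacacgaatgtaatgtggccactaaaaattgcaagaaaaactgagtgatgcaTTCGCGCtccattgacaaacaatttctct

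A second element linked to DREAM, the cell cycle genes homology region (spellings TTCGAA and TTTGAA, both strands), was at 18 of the 37 member peaks (48.6%). It was at 44.8% of all IDR peaks, at 52.4% of those at protein-coding starts and at 55.9% of the stretches upstream of all protein-coding starts.

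Genes of the cytosolic ribosome, named rpl-, rps- or rla- plus a number, are set beside the family with no test of the difference. Of 81, 69 (85.2%) were bound with a median score of 950, against 54.3% and 269 in the mitochondrial family. Only 9 of the 81 were operon-like, as against 29 of the 70 mitochondrial ones. Outside operon-like positions the shares were 80.5% for the mitochondrial and 91.7% for the cytosolic genes. Within such positions they were 17.2% (5 of 29) and 33.3% (3 of 9). With a gap of at most 200 bp, 1 of 22 mitochondrial and 0 of 5 cytosolic genes were bound, against 6.53% of all such genes. With the first gene of the run included, the shares over all positions were 81.4% and 91.4%. The part of operon-like position in the difference was not tested.

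Other lists of mitochondrial genes were small, and their shares are given beside 15.2% of all protein-coding genes, 16.3% outside operon-like positions and 10.7% within. Of 11 mitochondrial aminoacyl-tRNA synthetase genes (those named with the ending ars-2) 5 were bound (45.5%). They were 4 of 5 outside operon-like positions, led by sars-2 (1466), aars-2 (885) and ears-2 (587), and 1 of 6 within, yars-2. The genes lars-2, iars-2 and rars-2 were unbound, all operon-like. Of 16 further genes for translation factors, RNA modification and mitochondrial DNA upkeep 7 were bound (43.8%), 5 of 8 outside operon-like positions and 2 of 8 within. Highest were mrrf-1 for the ribosome recycling factor (1405), mtcu-2 for a tRNA-modifying enzyme (573) and tufm-2 for an elongation factor Tu (449). The genes dap-3, rpom-1 for the mitochondrial RNA polymerase and hmg-5, the counterpart of the packaging factor TFAM, were unbound. The human counterpart of dap-3 is a small-subunit ribosomal protein; the worm gene lies in the run of rpb-6 together with mrps-22. In the mitochondrial stress response 4 of 10 genes were bound (40.0%), 2 of 6 outside operon-like positions and 2 of 4 within. They were hsp-6 for a mitochondrial chaperone (506), ubl-5 (277), the transcription factor gene atfs-1 (273) and clpp-1 (68.2). The first unbound genes of that list were dve-1, hsp-60 and lonp-1.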

How the data were processed

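ChIP-seq for EFL-1 was done in 2 replicates of whole L1 larvae, with libraries of 150 to 350 bp per the labels. Per the text deposited with the samples, peaks and background were called for each replicate and for pooled reads with a control, and a further set was thresholded by IDR, on ce10 and ce11. No source used here names an aligner or a peak caller. The authors' deposited peak score has no stated scale; the deposited −log10 q stood at 4.04 in every IDR peak and was not used. Only the ce11 lists were analysed, since ce11 is the assembly WBcel235 of the reference. Gene models were those of Ensembl release 115 and sequences those of RefSeq. Python 3.11.15 was used, and window, run and motif code was tested on simulated data. Where several summits fell in a window, the highest-scoring gave the value. Operon-like runs were followed upstream to the first gene; partial overlap counted as a gap below 0 and nested genes were left out. Motif windows held 201 bases. Of the names in the fixed lists, 4 matched no gene (gfm-2, mtrf-1, guf-1 and mterf-3). Members with full values were the 10 highest and 3 lowest bound, the 5 unbound with the highest relaxed score, and mrps-5; for other lists, the 3 highest bound and the first 3 unbound. Further genes, and the words in the closing section, were chosen after their values were seen. Members and lists were chosen with earlier results of these data known, and no test was run. The alternatives were other windows, starts, thresholds, gaps and each replicate alone.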

Additional observations from a re-analysis of the deposited data

How the results depend on the processing

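With each summit assigned to 1 gene, that whose start was nearest, 25 members were bound rather than 38. Of all protein-coding genes 11.9% were then bound rather than 15.2%. The 25 held 13 large-subunit genes and 21 members outside operon-like positions. All 13 members lost had a gene on the opposite strand in reach. This follows largely from the rule, under which a member is lost only where another start is nearer the summit. In operon-like positions the 5 bound members became 19 of 29 (65.5%) with any relaxed summit. Such a summit was at 36.7% of all operon-like genes and 32.7% of all protein-coding genes. With the IDR peaks above the median score the 5 became 2, and 10.4% of all protein-coding genes were then bound. The 5 became 1 of 22 with a gap limit of 200 bp, against 6.53% of all such genes. With 1000 bp they became 10 of 36, for which no share of all genes was counted. Without replicate 1 the bound members were 38 and without replicate 2 also 38, where mrps-21 took the place of mrps-12. Under the other windows, starts and thresholds, 31 to 55 members were bound, while the share of all protein-coding genes ran from 10.4% to 32.7%. Of 7 settings that kept the size of the set, 23 of the 38 bound members were bound in every one, and 28 of the 32 unbound members in none. A search for the E2F spellings within 50 bp of the summit found 8 members and one within 200 bp found 11. Summits matched between replicates within 50 and 200 bp, settings added after the data were seen, left 36 and 37 members among the top peaks of both lists. No paired analysis was possible because there is a single group. Depth is unknown from the lists, so an absent summit is one not detectable here.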

Other observations

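Letters other than the E2F spellings recurred near the members' summits. The sequences of mrpl-28 and mrps-16 have the run tgtccgcaaacacc of 14 bases in common, from 18 to 5 bp upstream of the summit of mrpl-28 and from 12 bp upstream to 1 bp downstream of that of mrps-16. The sequences of mrpl-44 and mrps-7 have the 12 bases gcgcccagttta in common. Words from these runs were then counted on both strands within 100 bp of summits. The first counts were of CCGCAAAC, at 6 of 37 member peaks (16.2%) against 2.34% of all IDR peaks, and of CCCAGTTTA, at 2 of 37 (5.41%) against 0.145%. At the 27 member peaks not read when the words were chosen, CCCAGTTTA was found at 0.

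After these counts the first word was shortened by 1 letter and the second was dropped. As CCGCAAA the first word was at 7 of 37 member peaks (18.9%), against 4.86% of all IDR peaks and 2.45% of stretches upstream of all protein-coding starts. In 6 of the 7, at mrpl-28, mrps-16, mrpl-55, mrpl-45, mrps-10 and mrps-15, its centre lay within 18 bp of the summit. At mrps-25 it was 52 bp away and overlapped the E2F spelling there, so that match is not separate from the spelling. The word ACTCCGA, seen near the summits of mrpl-44, mrps-7 and mrps-31, was also at 7 of 37 member peaks (18.9%), against 2.09% of all IDR peaks and 1.15% of the upstream stretches. The other 4 were at mrpl-20, mrps-18C, mrps-25 and mrpl-38. All 4 words were chosen after reading the sequences of 10 member peaks, so counts over all 37 include the peaks that gave them. Among the 27 not read by then, 3 held CCGCAAA and 3 held ACTCCGA (11.1% each), and no test was made of these counts.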
